A study of Mus musculus with 15 samples.

Results

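Regulatory T cells (Tregs) act on other cells through a small set of secreted, granule and surface molecules, and 8 genes of that kind were followed across 3 tissues and 2 genotypes: Il10, Ebi3, Il12a, Fgl2, Gzmb, Areg, Entpd1 and Nt5e. The genes were picked by symbol from the 45706 genes of a table of read counts. All 8 had enough reads to enter the test, in which 18423 genes took part.

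The gene products work in different ways. IL-10, encoded by Il10, is a cytokine that restrains macrophages and dendritic cells through the transcription factor STAT3. The chain encoded by Il12a pairs with the chain encoded by Ebi3 to form IL-35, a cytokine ascribed to Tregs, while each chain also has another partner, in IL-12 and in IL-27. Fgl2 is a secreted fibrinogen-like protein that binds inhibitory Fc receptors, and granzyme B, from Gzmb, is a serine protease of cytotoxic granules. Amphiregulin, from Areg, is a ligand of the epidermal growth factor receptor and is known as the repair factor of Tregs in injured tissue. CD39, from Entpd1, and CD73, from Nt5e, are ectoenzymes that work in sequence: CD39 removes phosphates from extracellular ATP and ADP, and CD73 turns the resulting AMP into adenosine.

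Foxp3-positive T cells had been sorted from adult C57BL/6 mice that carried a Foxp3 reporter, and their RNA was sequenced in bulk. One genotype is the line named RelB-dDC, taken to mean that dendritic cells are without the NF-kappaB family member RelB, and called dDC below. The other is its littermate controls, which carry the same reporter. The labels name no Cre driver and no floxed allele, give no age beyond adult, and do not say whether animals were pooled. There were 8 control libraries (3 of spleen, 3 of thymus and 2 of peritoneal cavity) and 7 dDC libraries (3, 2 and 2). Nothing says that libraries of a group came from separate animals, so p-values measure the spread between these libraries, which may be technical. Library numbers are names only.

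Each library held between 15714286 and 24332044 gene counts. All 6 markers of T cells and Tregs, Foxp3 among them, were present in all 15 libraries, and their summed level was 3415 and 3760 CPM in peritoneal controls, 3919 and 4880 CPM in peritoneal dDC and 4617 to 5519 CPM elsewhere. Both genotypes of peritoneal cavity were thus separate in this sum, dDC being higher, and its part in their differences below was not tested. Cd3e was its largest term, at 1314 and 1285 CPM in peritoneal controls and 1844 and 1609 CPM in peritoneal dDC. Foxp3 and Il2ra went the other way. Their means were 287.3 and 471.1 CPM in peritoneal controls and 230.1 and 391.5 CPM in peritoneal dDC. The sum is therefore not read as a measure of Treg content. CPM are counts scaled to a common library size. RNA of other cells was present and differed between tissues. The summed level of 8 B cell markers was 1123 to 2272 CPM in peritoneal cavity, 350.1 to 1038 CPM in spleen and 42.3 to 89.2 CPM in thymus, with all 8 markers above 0 in every spleen and peritoneal library. The summed level of 10 macrophage and monocyte markers was 1580 CPM in peritoneal control 2, of which Lyz2 made up 1187 CPM, against 3.68 to 380.2 CPM in the other 14 libraries. In thymus, 5 mast cell markers summed to 45.2 to 81.3 CPM, nearly all of it Kit, and 2 or 3 of the 5 were at 0 in each library. This sum is not read as RNA of mast cells.

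Compared per length of exon, Nt5e was the most abundant of the 8 genes in every group, with group means of 50.8 to 75.9 reads per kilobase of exon, scaled to library size (RPKM). Ebi3 ran from 4.60 RPKM in peritoneal controls to 61.6 RPKM in thymus dDC. Group means were 1.42 to 22.1 RPKM for Fgl2 and 2.56 to 9.64 RPKM for Entpd1. The other members were weaker: Gzmb lay between 0.904 and 12.99 RPKM, Il10 between 1.27 and 5.18, Areg between 0 and 2.24 and Il12a between 0 and 2.13. The spread between libraries of a group was small for the well expressed members and large for the weak ones. The biological coefficient of variation was 0.188 for Nt5e, 0.284 for Ebi3 and 0.285 for Entpd1, below the median of 0.551 over all tested genes, then 0.517 for Fgl2, 0.828 for Il10, 1.07 for Gzmb, 1.33 for Areg and 1.36 for Il12a.

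**Figure D1:**
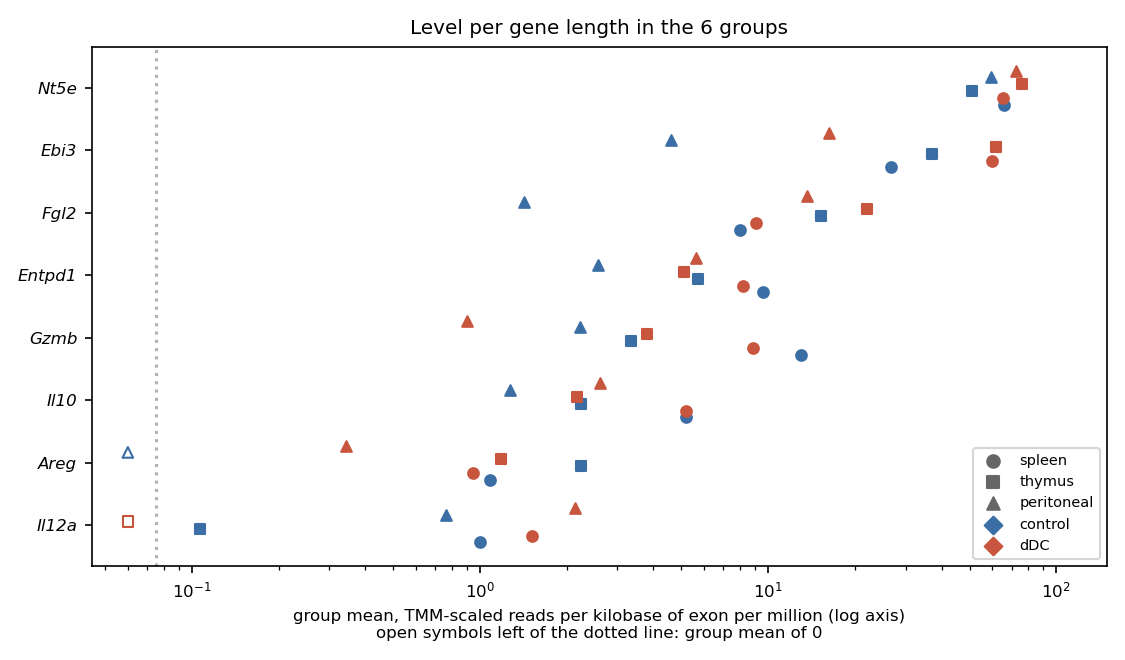
Group mean of each gene in RPKM, on a log axis, with tissue as symbol and genotype as colour; open symbols left of the dotted line stand for a group mean of 0. Nt5e sits at 50.8 to 75.9 in all 6 groups, and the blue triangles of peritoneal controls lie lowest for Ebi3, Fgl2, Entpd1, Il10 and Areg.

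The clearest differences were between tissues. Ebi3 RNA was lower in peritoneal Tregs than in spleen or thymus Tregs in both genotypes, Entpd1 was lower in peritoneal than in spleen controls, and Fgl2 was lower in peritoneal than in thymus controls. In controls, 2 of 8 members passed an adjusted p of 0.05 between peritoneal cavity and spleen, both lower, where 0.792 percent of all tested genes passed in either direction and 0.499 percent were lower. Between peritoneal cavity and thymus it was again 2 of 8, both lower, where 2.47 percent of tested genes passed and 1.13 percent were lower. In dDC mice 1 of 8 was lower against spleen, where 0.906 percent passed and 0.423 percent were lower, and 1 of 8 was lower against thymus, where 1.35 percent passed and 0.586 percent were lower. At an unadjusted p under 0.05 there were 4 of 8 in controls against spleen (10.6 percent of all tested genes), 4 against thymus (14.1 percent), and 1 and 2 in dDC (8.64 and 11.3 percent). Group ranges did not overlap for 6 and 5 of 8 in controls, where 25 and 28.4 percent of genes were separated, and for 2 and 5 in dDC, where 28.4 and 38.9 percent were. The median log2 difference of the 8 genes between control peritoneal cavity and spleen was -2.26, with or without Areg set to its bound, against -0.03 over all tested genes. Against thymus it was -0.99 in controls, against -0.03 over all genes. In dDC mice the medians were -0.77 against spleen and -0.38 against thymus, where all genes had -0.01 and 0.02. The comparisons within a genotype share their peritoneal libraries.

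Between thymus and spleen no member passed the edgeR test in either genotype, where 0.603 percent of genes passed in controls and 0.179 percent in dDC mice. At an unadjusted p under 0.05 there was 1 of 8 in each genotype, against 9.79 percent of genes in controls and 7.75 percent in dDC. Ranges were separate for 2 members in controls (14.8 percent of genes) and 4 in dDC (22.7 percent). Here limma-voom called none in either, and DESeq2 called none in controls and 1, Il12a, in dDC mice. Of all tested genes DESeq2 called 585 in controls and 425 in dDC mice.

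No member passed the edgeR test between dDC and control in any tissue. Ebi3 was the member nearest to it, with higher values in every dDC library than in every control library of the same tissue in spleen, thymus and peritoneal cavity. In spleen and in thymus 0 percent of all tested genes passed, and in peritoneal cavity 0.00543 percent. For the mean of the 3 tissue differences, weighted equally, 0 of 8 members passed, where 0.076 percent of genes did. At an unadjusted p under 0.05 the counts were 1 of 8 in spleen (4.27 percent of genes), 1 in thymus (6.57 percent), 3 in peritoneal cavity (6.36 percent) and 3 for the mean (9.31 percent). By limma-voom 0 of 8 passed in each of the 4, and by DESeq2 0 in spleen, 0 in thymus, 2 in peritoneal cavity and 2 for the mean, Ebi3 and Fgl2 both times. Of all 18423 tested genes DESeq2 called 33, 153, 194 and 384 in these 4 comparisons. Groups did not overlap for 1 of 8 members in spleen, where this held for 10.1 percent of all tested genes. The count was 2 in thymus against 19.4 percent, and 5 in peritoneal cavity against 34.1 percent. The median log2 difference of the 8 was -0.00 in spleen, 0.07 in thymus and 1.31 in peritoneal cavity (1.22 with Areg at its bound), against -0.01, -0.03 and 0.00 over all genes. Whether the dDC difference varied between tissues was tested as well: 0 of 8 members passed in the 3 tests, where 0 percent of genes passed in each. The counts at an unadjusted p under 0.05 were 0 for thymus against spleen (5.06 percent of genes), 2 for peritoneal cavity against spleen (4.89 percent) and 2 for peritoneal cavity against thymus (5.72 percent), and limma-voom and DESeq2 called none.

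**Figure D2:**
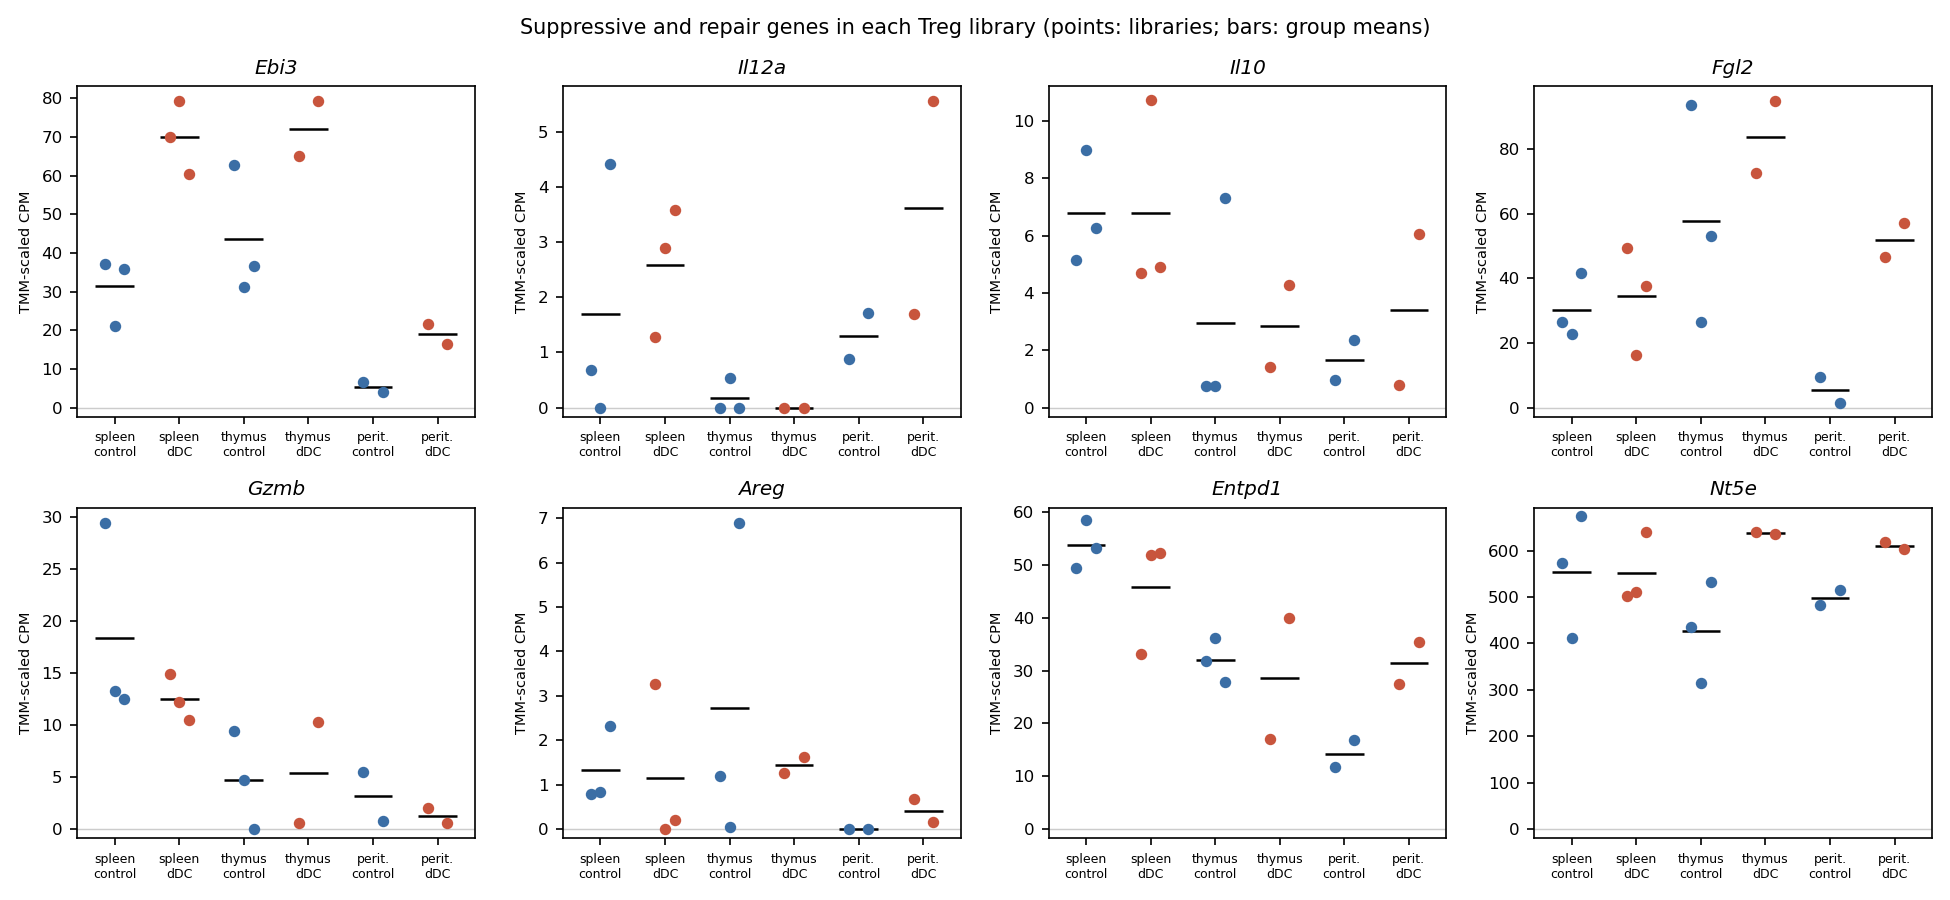
Level of each gene in every library in TMM-scaled CPM, one panel per gene with its own axis starting near 0, points for libraries (blue control, red dDC) and bars for group means. Ebi3 is the gene whose dDC points lie above the control points in all 3 tissues, and for Areg and Il12a single libraries carry much of the group means.

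Ebi3, on chromosome 17 at 55952623 to 55957021 on the plus strand (mm10, ENSMUSG00000003206), was measured at 37.0, 21.1 and 35.9 CPM in spleen controls 1 to 3 and at 69.9, 79.4 and 60.5 CPM in spleen dDC. In thymus it was 62.7, 31.2 and 36.6 CPM in controls and 65.1 and 79.2 CPM in dDC. In peritoneal cavity it was 6.70 and 4.05 CPM in controls and 21.6 and 16.5 CPM in dDC. Peritoneal controls were the lowest libraries of all 15, and within each tissue the lowest dDC library exceeded the highest control library, narrowly so in thymus. Ordered by mean, thymus dDC (72.1 CPM), spleen dDC (69.9), thymus control (43.5), spleen control (31.3) and peritoneal dDC (19.04) each overlapped the next in line, and peritoneal dDC lay above peritoneal control (5.38) without overlap.

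Against spleen controls, Ebi3 was 5.81-fold lower in peritoneal controls (log2 -2.54, SE 0.39, edgeR adjusted p = 0.0132), and against thymus controls 8.06-fold lower (log2 -3.01, SE 0.40, adjusted p = 0.00187). In dDC mice it was 3.67-fold lower than in spleen (log2 -1.88, SE 0.37, adjusted p = 0.0404) and 3.79-fold lower than in thymus (log2 -1.92, SE 0.40, adjusted p = 0.0358). The ranges of the groups were separate in all 4 comparisons. In bulk RNA, fewer cells that express a gene and less of its RNA per cell cannot be told apart. The difference from thymus controls passed without any 1 of the 15 libraries, with adjusted p up to 0.0362. The difference from spleen controls was lost only without peritoneal control 2, the library with the macrophage markers, at adjusted p = 0.16. The dDC differences were less secure: against spleen the call held in 5 of 15 omissions (peritoneal controls 1 and 2, spleen control 2, thymus controls 1 and 2), with adjusted p up to 0.431. Against thymus it held in 7 of 15 (the same 5, spleen control 3 and thymus control 3), with adjusted p up to 0.314. With only the compared groups in the fit none of the 4 passed by edgeR, with adjusted p of 0.244 and 0.0942 in controls against spleen and thymus and 0.0579 and 0.173 in dDC. By limma-voom the difference from spleen controls did not pass (adjusted p = 0.109) and the other 3 did (0.031, 0.0368 and 0.0376).

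Between genotypes, Ebi3 was 2.23-fold higher in dDC spleen (log2 1.16, 95% interval 0.47 to 1.85, adjusted p = 1 by edgeR). It was 1.66-fold higher in dDC thymus (log2 0.73, interval -0.02 to 1.48, edgeR adjusted p = 0.748) and 3.53-fold higher in dDC peritoneal cavity (log2 1.82, interval 0.94 to 2.69, edgeR adjusted p = 0.285). The mean of the 3 was 1.24 (SE 0.20, interval 0.79 to 1.68), and its edgeR adjusted p of 0.0639 missed the threshold, over alternatives with 5.81e-06 (DESeq2) to 0.497 (spleen and thymus only). It passed without peritoneal control 1 (adjusted p = 0.0296) and without thymus control 1 (0.033), the control library with the highest Ebi3. The mean of spleen and thymus alone, an alternative chosen after the values had been seen, was 0.94 with adjusted p = 0.497. Differences between tissues in this effect did not pass, the largest being 1.09 for peritoneal cavity against thymus (interval -0.06 to 2.24, adjusted p = 0.84).

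Exons of Ebi3 overlap the gene Gm16712 on the minus strand, and the library chemistry does not mark strand. Gm16712 had 1 to 548 counts per library, where Ebi3 had 64 to 1613. In peritoneal controls 1 and 2 it had 64 and 4 counts beside 137 and 64 for Ebi3, and in peritoneal dDC 52 and 52 beside 419 and 297. In thymus Gm16712 had 186, 189 and 156 counts in controls and 548 and 91 in dDC. The library with 548, thymus dDC 1, is the one whose Ebi3 only narrowly exceeded thymus control 1 (65.1 against 62.7 CPM). In spleen Gm16712 had 173, 93 and 1 counts in controls and 108, 162 and 274 in dDC. How many of these reads belong to the other gene was not tested.

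The promoters of the pair of genes that were lower in peritoneal than in spleen controls, Ebi3 and Entpd1, are shown to place them in the genome: 250 bases that end at the RefSeq start, from GRCm38.p6, the assembly behind mm10, on the plus strand for both. For Ebi3 this is chr17:55952373-55952622 and for Entpd1 chr19:40612116-40612365. Capitals mark a match to the NF-kappaB motif.
Ebi3: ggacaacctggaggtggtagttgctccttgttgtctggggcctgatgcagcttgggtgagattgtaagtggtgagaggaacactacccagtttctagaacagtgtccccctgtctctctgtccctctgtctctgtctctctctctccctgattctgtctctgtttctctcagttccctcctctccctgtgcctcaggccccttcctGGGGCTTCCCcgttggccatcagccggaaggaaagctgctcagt
Entpd1: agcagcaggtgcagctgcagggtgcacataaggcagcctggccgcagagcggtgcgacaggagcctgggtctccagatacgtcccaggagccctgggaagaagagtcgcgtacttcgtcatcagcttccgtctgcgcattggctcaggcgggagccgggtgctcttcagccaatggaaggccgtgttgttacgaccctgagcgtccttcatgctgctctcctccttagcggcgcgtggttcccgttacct

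Both strands were searched for 6 motifs: NF-kappaB, STAT (TTCNNNGAA), AP-1/BATF (TGANTCA), the interferon response motif (GAAA, any 2 bases, GAAA), CRE (TGACGTCA) and the E-box (CACGTG). RefSeq promoters were found for 7 of the 8 members. The Ebi3 window held an NF-kappaB match 44 to 35 bases before the start, as did 7.25 percent of 32851 promoters of that length. RefSeq gives Entpd1 a second start inside the gene, and neither of its windows held any of the 6. The GC content was 62.4 percent in the window shown and 47.2 percent in the other, beside 56.0 percent for Ebi3 and a median of 52.4 percent. The Fgl2 window held a STAT match 36 to 28 bases before the start (7.02 percent of promoters) and an AP-1/BATF match 16 to 10 bases before it (6.75 percent), and Gzmb an AP-1/BATF match 58 to 52 bases before it. Areg held a CRE 61 to 54 bases before its start, a motif present in 1.55 percent of promoters. The 2 windows of Il12a and the window of Nt5e held no match. The E-box and the interferon response motif occurred in 6.02 and 2.98 percent of all promoters and in none of the members' windows. A match is a description of the letters, and binding was not measured.

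Il12a, whose chain is the partner of Ebi3 in IL-35, lies on chromosome 3 at 68690644 to 68698547 (plus strand, ENSMUSG00000027776) and was weak everywhere. It was at 0.685, 0 and 4.42 CPM in spleen controls, at 1.28, 2.89 and 3.59 CPM in spleen dDC, and at 0.881 and 1.71 CPM in peritoneal controls. Peritoneal dDC had 1.70 and 5.56 CPM. In thymus, 1 control library had 0.545 CPM and the other 4 thymus libraries had no read. Spleen libraries (0 to 4.42 CPM) and peritoneal libraries (0.881 to 5.56 CPM) overlapped in most of their range, and the thymus means were lowest. In dDC mice the mean of spleen was at least 16.6-fold above thymus and the mean of peritoneal cavity at least 23.3-fold above it, against a floor of 3 counts per library. Without 1 library of the group with reads, these bounds were 13.4-fold to 20.8-fold for spleen, 10.9-fold without peritoneal dDC 2 and 35.7-fold without peritoneal dDC 1. These floors cover counting error only. Neither difference passed the edgeR test (adjusted p = 0.575 and 0.274), and DESeq2 called both (0.0432 and 0.0234). The B cell markers were likewise lowest in thymus, with 0 to 4 of 8 at 0 there, and their part in the Il12a reads was not tested. Between genotypes, log2 differences were 0.60 in spleen (interval -3.22 to 4.42) and 1.48 in peritoneal cavity (interval -3.29 to 6.25), with edgeR adjusted p of 1 and 0.965. With the spread between these libraries, neither direction was resolved. Ebi3 thus varied across tissues in a different order than Il12a: Ebi3 was high in thymus, where Il12a was nearly absent.

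Il10 (chromosome 1, 131019845 to 131024974, plus strand, ENSMUSG00000016529) was at 5.14, 8.97 and 6.27 CPM in spleen controls and at 4.70, 10.7 and 4.90 CPM in spleen dDC. Thymus controls had 0.766, 0.763 and 7.30 CPM and thymus dDC 1.42 and 4.27 CPM. Peritoneal controls had 0.978 and 2.34 CPM and peritoneal dDC 0.772 and 6.06 CPM. Spleen was the tissue in which every library had Il10 RNA at 4.70 CPM or more, and single libraries of thymus and peritoneal cavity reached that level. Every group overlapped the next in order of mean. The largest difference between tissues, 4.08-fold lower in peritoneal than in spleen controls (log2 -2.03, SE 1.22, separate ranges), had an edgeR adjusted p of 0.578. Genotypes overlapped in each tissue, with a log2 difference of 0.33 for the mean of tissues (interval -1.09 to 1.75, adjusted p = 0.975).

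Of the other cytokines of the IL-10, IL-12 and TGF-beta kind, 3 of 9 had enough reads to be tested and none passed in any comparison by edgeR, limma-voom or DESeq2, with 1 at an unadjusted p under 0.05, for the mean of tissues. Tgfb1, the best known Treg ligand among them, had group means of 2.21 to 3.97 CPM. Il27, whose chain is the other partner of the Ebi3 chain, had group means of 0 to 0.196 CPM and did not enter the test. All 15 genes on the list of receptors for these cytokines and their STAT factors were tested. Tgfbr1, a TGF-beta receptor chain (log2 -1.81, edgeR adjusted p = 0.0146), and Stat3, the factor that IL-10 signals through (log2 -1.08, 0.0195), were lower in peritoneal than in thymus controls. Il6st, the gp130 receptor chain, was lower in dDC peritoneal cavity than in dDC thymus (log2 -0.82, 0.0327). Between genotypes none of the 15 passed by edgeR, with 3, 0, 1 and 2 at an unadjusted p under 0.05 in spleen, thymus, peritoneal cavity and the mean, none by limma-voom, and 0, 0, 1 and 1 by DESeq2. For all tested genes the unadjusted shares were 4.27, 6.57, 6.36 and 9.31 percent, and DESeq2 called 33, 153, 194 and 384 genes. The median log2 difference of the list between peritoneal cavity and spleen or thymus was -0.32 and -0.33 in controls and -0.20 and -0.44 in dDC. Over all tested genes it was -0.03 and -0.03 in controls and -0.01 and 0.02 in dDC.

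Fgl2 (chromosome 5, 21372642 to 21378374, plus strand, ENSMUSG00000039899) lies inside the span of Ccdc146 without overlap of exons. It was at 26.5, 22.7 and 41.5 CPM in spleen controls and at 49.2, 16.4 and 37.5 CPM in spleen dDC. Thymus had 93.6, 26.6 and 53.1 CPM in controls and 72.6 and 94.8 CPM in dDC. Peritoneal controls had 9.34 and 1.39 CPM, and peritoneal dDC 46.6 and 57.2 CPM. Peritoneal controls lay below all other 13 libraries, and peritoneal dDC lay within the range of the spleen and thymus libraries. In controls Fgl2 was 10.7-fold lower in peritoneal cavity than in thymus (log2 -3.41, SE 0.80, edgeR adjusted p = 0.0467). The call held in only 3 of 15 omissions (peritoneal control 1, spleen dDC 2 and thymus control 2), with adjusted p between 0.0128 and 0.228 over all 15. It was not made by limma-voom (adjusted p = 0.148) or by edgeR with only the compared groups in the fit (0.241). Without peritoneal control 1 the difference was -5.37, and without peritoneal control 2 it was -2.62. Against spleen controls Fgl2 was 5.58-fold lower (log2 -2.48, adjusted p = 0.228), and this passed only without peritoneal control 1 (0.0402).

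In peritoneal cavity Fgl2 was 9.58-fold higher in dDC than in control without overlap (log2 3.26, interval 1.47 to 5.05), with an edgeR adjusted p of 0.4. DESeq2 called it (adjusted p = 0.00166) and limma-voom did not. It also passed without peritoneal control 1 (log2 5.21, adjusted p = 0.0401), and without peritoneal control 2 the log2 difference was 2.47 with adjusted p = 1. The 2 control libraries thus decide the size of this difference. Peritoneal control 2, with macrophage markers at 1580 CPM in sum, had the lowest Fgl2 of all libraries. Peritoneal control 1, with 58.6 CPM and 5 of 10 of those markers at 0, had the next lowest. The part of RNA of other cells in these Fgl2 values was not tested. In spleen and thymus the log2 differences were 0.18 and 0.53 with overlapping groups (edgeR adjusted p = 1 and 0.948). The dDC difference was larger in peritoneal cavity than in spleen by 3.08 (interval 0.90 to 5.25), which did not pass adjustment (0.998). Fcgr2b, the inhibitory Fc receptor to which Fgl2 binds, was at 36.0 CPM in peritoneal controls and 20.9 in peritoneal dDC, at 4.93 and 4.29 in spleen, and at 0.0192 and 0 in thymus. The difference between peritoneal cavity and thymus passed in controls (adjusted p = 0.00894) and in dDC (0.0328). It ran in the order of the B cell markers across tissues, and their part in it was not tested.

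Gzmb (chromosome 14, 56258856 to 56262260, minus strand, ENSMUSG00000015437) was highest in spleen, at 29.5, 13.3 and 12.5 CPM in controls and 14.9, 12.2 and 10.5 CPM in dDC. Thymus controls had 9.47, 4.74 and 0 CPM and thymus dDC 0.548 and 10.3 CPM. Peritoneal controls had 5.53 and 0.760 CPM and peritoneal dDC 2.01 and 0.556 CPM. All 6 spleen libraries lay above all thymus and peritoneal libraries, the nearest being thymus dDC 2. Still no tissue difference passed by edgeR, and libraries of a group varied widely. Gzmb was 5.83-fold lower in peritoneal than in spleen controls (log2 -2.54, SE 1.67, edgeR adjusted p = 0.616), and 9.72-fold lower in dDC (log2 -3.28, SE 1.74, 0.669). Between genotypes the mean log2 difference was -0.55 (interval -2.47 to 1.37, adjusted p = 0.95). Markers of NK and CD8 T cells, which also carry granzyme B, summed to 73.3 to 147.4 CPM in spleen, 79.4 to 139.6 in thymus and 48.1 to 113.8 in peritoneal cavity, and their part in the Gzmb reads was not tested.

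Among 18 other granzyme and granule genes 12 were tested. The only one called by edgeR was Srgn, the proteoglycan core that packs granzymes, which was 1.58-fold lower in thymus than in spleen controls (log2 -0.66, SE 0.12, adjusted p = 0.0347). None passed in the 4 peritoneal comparisons by edgeR, where 2, 3, 1 and 2 had an unadjusted p under 0.05 (controls against spleen and thymus, then dDC), limma-voom called none and DESeq2 called 1, 2, 0 and 1. None passed between genotypes by edgeR in spleen, thymus, peritoneal cavity or the mean, with 0, 1, 2 and 2 at an unadjusted p under 0.05, none by limma-voom and 1 by DESeq2, for the mean. The unadjusted shares of all tested genes were 4.27, 6.57, 6.36 and 9.31 percent there, and DESeq2 called 33, 153, 194 and 384 genes. The Srgn call was lost in at least 1 omission, that of spleen control 1. In that comparison limma-voom called 1 gene of the list and DESeq2 called 2, beside 108 and 585 of all tested genes.

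Areg (chromosome 5, 91139599 to 91148432, plus strand, ENSMUSG00000029378) was near the limit of detection. Spleen controls had 0.799, 0.846 and 2.31 CPM and spleen dDC 3.26, 0 and 0.194 CPM. Thymus controls had 1.204, 0.0545 and 6.89 CPM and thymus dDC 1.26 and 1.62 CPM. Both peritoneal controls had no read, and peritoneal dDC had 0.669 and 0.167 CPM. Thymus control 3 alone held the highest value, and neighbouring groups overlapped down to peritoneal dDC. Peritoneal dDC 2 and thymus control 2 were themselves under the floor of 3 counts per library in peritoneal controls (0.168 CPM), so no bound is given for peritoneal dDC, whose difference from controls did not pass (edgeR adjusted p = 0.788). Against that floor the means of spleen and thymus controls were at least 7.84-fold and 16.1-fold above peritoneal controls (edgeR adjusted p = 0.387 and 0.222), and DESeq2 called the second (0.015). Both bounds rested largely on 1 library: without spleen control 3 the first was 4.88-fold, and without thymus control 3 the second was 3.74-fold. Of 14 other genes of the epidermal growth factor family and of shedding, 9 were tested and none passed in any comparison by edgeR or limma-voom. In the 4 genotype comparisons (spleen, thymus, peritoneal cavity and the mean) 0, 2, 0 and 1 had an unadjusted p under 0.05 and DESeq2 called 0, 1, 0 and 0. The unadjusted shares of all tested genes were 4.27, 6.57, 6.36 and 9.31 percent, and DESeq2 called 33, 153, 194 and 384 genes. Adam17, the protease that releases amphiregulin from the cell surface, was well expressed at group means of 86.2 to 134.2 CPM.

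Entpd1 (chromosome 19, 40612366 to 40741602, plus strand, ENSMUSG00000048120) was at 49.5, 58.6 and 53.3 CPM in spleen controls and at 33.1, 51.9 and 52.3 CPM in spleen dDC. Thymus had 31.9, 36.2 and 27.9 CPM in controls and 17.03 and 40.0 CPM in dDC. Peritoneal controls had 11.7 and 16.9 CPM and peritoneal dDC 27.4 and 35.3 CPM. Peritoneal controls were the lowest 2 of all 15 libraries, and the other groups overlapped their neighbours in order of mean. Entpd1 was 3.76-fold lower in peritoneal than in spleen controls (log2 -1.91, SE 0.37, edgeR adjusted p = 0.0414). That call held in 3 of 15 omissions (spleen dDC 1 and thymus dDC 1 and 2), with adjusted p up to 0.172, and was not made by limma-voom (0.0647) or by edgeR with only the compared groups in the fit (0.216). It was 2.24-fold lower than in thymus controls (log2 -1.16, SE 0.36, adjusted p = 0.14). In dDC mice the differences were -0.55 against spleen and 0.14 against thymus (adjusted p = 0.753 and 0.96). In peritoneal cavity Entpd1 was 2.194-fold higher in dDC than in controls without overlap (log2 1.13, interval 0.30 to 1.97, adjusted p = 0.636). In spleen and thymus it was not higher in dDC, with log2 differences of -0.23 and -0.17 (adjusted p = 1 and 0.992). The difference between the effects in peritoneal cavity and spleen was 1.37 (interval 0.29 to 2.44, adjusted p = 0.998).

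Nt5e (chromosome 9, 88327197 to 88372092, plus strand, ENSMUSG00000032420) was high and even. It was at 573.5, 411.7 and 675.1 CPM in spleen controls and at 502.3, 510.0 and 641.2 CPM in spleen dDC. Thymus had 434.7, 315.4 and 532.5 CPM in controls and 640.1 and 636.7 CPM in dDC, and peritoneal cavity 481.9 and 514.6 CPM in controls and 618.6 and 602.9 CPM in dDC. The highest library exceeded the lowest only 2.14-fold, against 5.01-fold for Entpd1 and 19.6-fold for Ebi3. In thymus and in peritoneal cavity every dDC library lay above every control library. Nt5e was 1.49-fold higher in dDC thymus (log2 0.58, interval 0.10 to 1.06, edgeR adjusted p = 0.748) and 1.23-fold higher in dDC peritoneal cavity (log2 0.29, interval -0.24 to 0.82, adjusted p = 0.89). In spleen the difference was -0.01 (interval -0.44 to 0.43). Peritoneal and spleen controls differed by -0.15 (interval -0.64 to 0.33), so a difference of the size found for Entpd1 or Ebi3 lies outside that interval. The 2 enzymes of the adenosine route therefore did not have the same pattern: CD39 RNA was lowest in peritoneal controls and CD73 RNA was not.

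**Figure D3:**
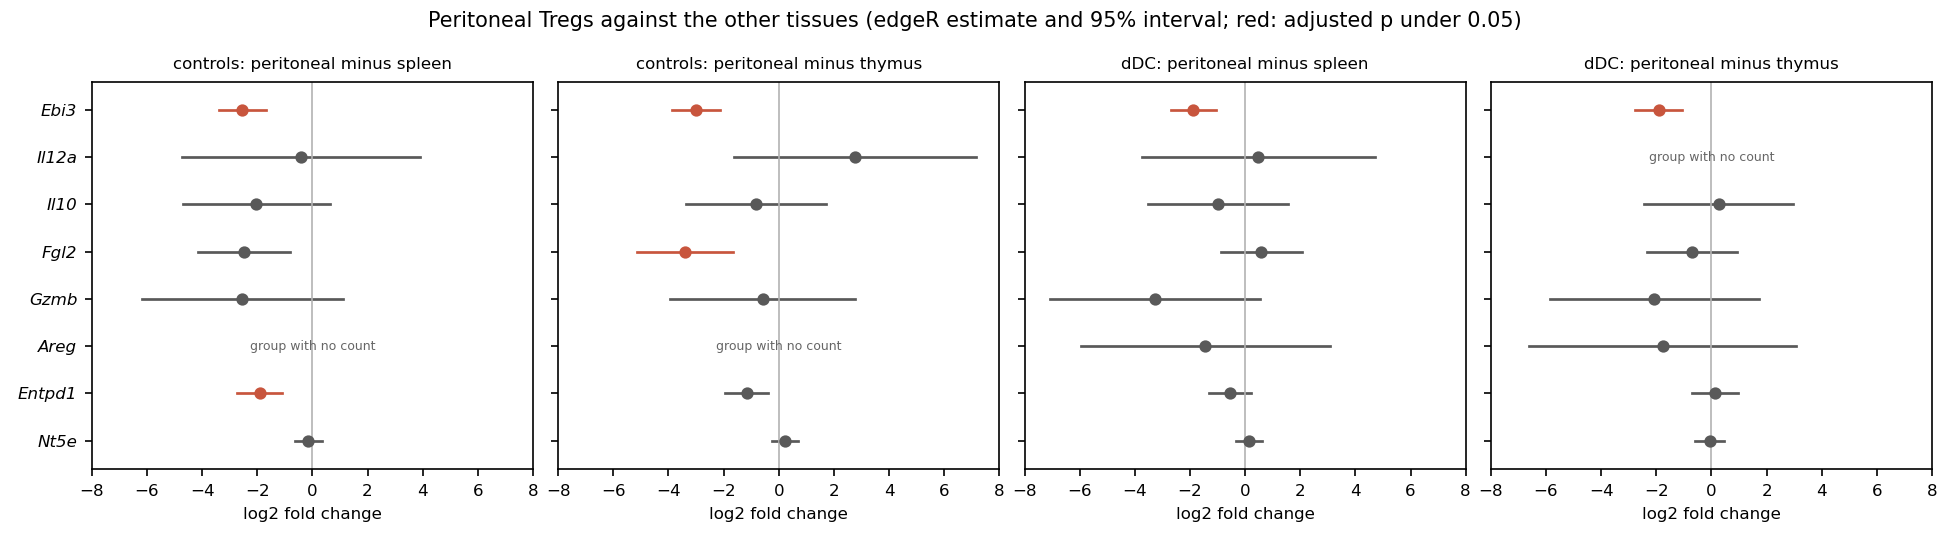
Log2 difference of each gene between peritoneal Tregs and those of spleen or thymus within a genotype, with the edgeR estimate as point and the 95% interval as line, red where the adjusted p was under 0.05. Ebi3 is red at -2.54, -3.01, -1.88 and -1.92, Fgl2 and Entpd1 are red in 1 control comparison each, and genes with a group without reads are left blank.

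Of 23 other enzymes, transporters and receptors for purines 17 were tested. Adk, adenosine kinase, which turns adenosine back into AMP inside the cell, was higher in peritoneal Tregs in all 4 comparisons, and it was the only one of the 17 that passed by edgeR in any of them. There limma-voom called 1 gene of the list in each, and DESeq2 called 1, 1, 1 and 3 (the last in dDC against thymus). It was at 81.01 to 178.2 CPM in the 11 spleen and thymus libraries and at 345.1 to 479.8 CPM in the 4 peritoneal libraries. The log2 differences were 1.51 and 1.86 in controls against spleen and thymus (edgeR adjusted p = 0.00378 and 0.000321) and 1.57 and 2.11 in dDC (0.00228 and 0.000544). Without 1 library at a time, 1 gene of the list rose in each omission in the control comparisons and in the dDC comparison with spleen, and 1 to 3 in that with thymus, while 0 to 2 fell in the control comparisons and none in dDC. None of the 17 passed between genotypes, with 0, 1, 0 and 2 at an unadjusted p under 0.05 in spleen, thymus, peritoneal cavity and the mean. Between genotypes limma-voom called none and DESeq2 called 0, 1, 0 and 0. The unadjusted shares of all tested genes between genotypes were 4.27, 6.57, 6.36 and 9.31 percent, and DESeq2 called 33, 153, 194 and 384 genes.

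**Figure D4:**
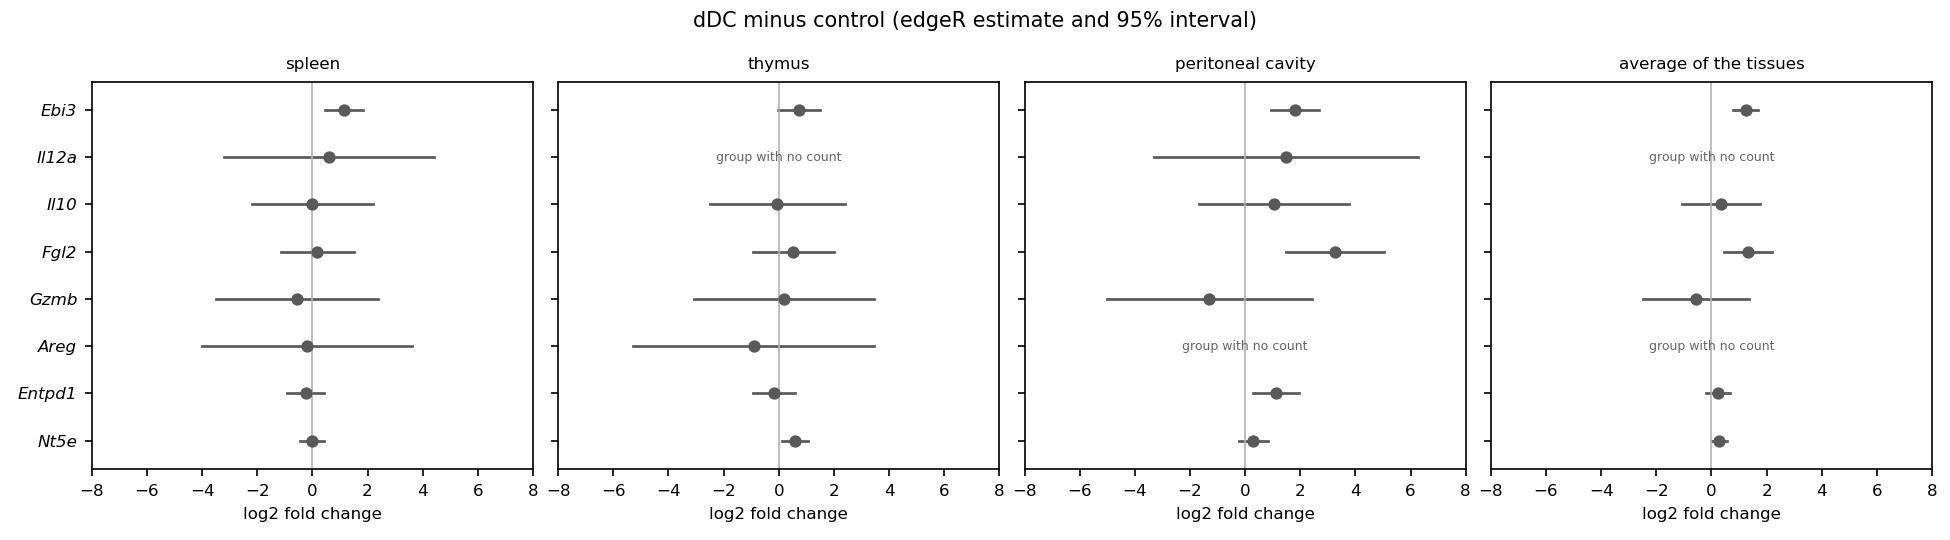
Log2 difference between dDC and control for each gene in spleen, thymus, peritoneal cavity and the equally weighted mean, with the edgeR estimate as point and the 95% interval as line; none had an adjusted p under 0.05. The Ebi3 interval lies above 0 in spleen, peritoneal cavity and the mean (1.24, 0.79 to 1.68), and Areg and Il12a are left blank where a group had no read.

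Other suppressive genes that act by contact or by binding a cytokine were followed as a list of 20, of which 19 were tested. Il1r2, the decoy receptor for IL-1, was lower in peritoneal Tregs in all 4 comparisons, by 9.90-fold and 21.4-fold in controls against spleen and thymus and by 10.8-fold and 19.7-fold in dDC (edgeR adjusted p = 0.0063, 0.000495, 0.00423 and 0.00101). Penk, the enkephalin precursor, was at 238.1 to 631.0 CPM in spleen and thymus and 0.317 to 14.1 CPM in peritoneal cavity, a difference that passed in controls against thymus (0.0183) and in dDC against spleen (0.0388) and thymus (0.0196). Tnfrsf18, the costimulatory receptor GITR, went the other way and was 1.69-fold higher in peritoneal cavity than in spleen in controls (0.0251) and 2.49-fold higher in dDC (0.000677). Against spleen, 1 gene was higher and 2 lower in controls, the second being Lag3, whose mean of 4.49 CPM in spleen controls was under the level set for naming. Against thymus, 1 was higher, Fcgr2b, and 6 lower in controls, among them Il2ra (log2 -0.96, 0.0235). In dDC 1 was higher and 2 lower against spleen, and 1 higher and 3 lower against thymus. The counts of lower genes moved to 1 to 4, 2 to 6, 0 to 3 and 1 to 4 when 1 library was left out. In these 4 comparisons 0.792, 2.47, 0.906 and 1.35 percent of all tested genes passed by edgeR, and 0.499, 1.13, 0.423 and 0.586 percent were lower. The median log2 difference of the list was -0.62 and -0.93 in controls and -0.27 and -0.47 in dDC. Over all tested genes it was -0.03 and -0.03 in controls and -0.01 and 0.02 in dDC. None passed between genotypes by edgeR, with 1, 3, 8 and 10 at an unadjusted p under 0.05 in spleen, thymus, peritoneal cavity and the mean, none by limma-voom, and 0, 0, 6 and 4 by DESeq2. Over all tested genes the shares at an unadjusted p under 0.05 were 4.27, 6.57, 6.36 and 9.31 percent, and DESeq2 called 33, 153, 194 and 384 genes.

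All 16 transcription factors on the list for effector Tregs were tested. Egr2, known to promote IL-10 in T cells, was nearly absent from peritoneal cavity, at 2.64 and 6.08 CPM in controls and 1.70 and 0.111 CPM in dDC, against 47.6 to 102.9 CPM in the other 11 libraries. It was lower in all 4 peritoneal comparisons, with log2 differences of -4.21 and -4.15 in controls (edgeR adjusted p = 0.0194 and 0.00781) and -6.02 and -5.75 in dDC (0.00372 and 0.00348). Batf was lower in peritoneal controls than in spleen (log2 -1.44, 0.0135) and thymus (-1.24, 0.0133), Maf lower than in spleen (-1.2, 0.0398) and Bhlhe40 lower than in thymus (-2.70, 0.0278). Id2 was 2.81-fold higher in dDC peritoneal cavity than in dDC spleen (0.0166). In controls 3 and 4 of 16 were lower against spleen and thymus and none higher. In dDC 1 was lower against each, and 1 was higher against spleen. In these 4 comparisons 0.792, 2.47, 0.906 and 1.35 percent of all tested genes passed by edgeR, and 0.499, 1.13, 0.423 and 0.586 percent were lower. The list's counts of lower genes were 0 to 3, 2 to 4, 1 to 1 and 1 to 1 without 1 library at a time. Between genotypes none of the list passed by edgeR or limma-voom. In spleen, thymus, peritoneal cavity and the mean 1, 3, 8 and 7 had an unadjusted p under 0.05, and DESeq2 called 1, 1, 4 and 7. Over all tested genes the unadjusted shares there were 4.27, 6.57, 6.36 and 9.31 percent, and DESeq2 called 33, 153, 194 and 384 genes. Nothing particular to either list is read from these counts, and the part of the T cell and Treg marker sum, higher in peritoneal dDC than in peritoneal controls, was not tested. That sum is not separate from the lists: it holds Foxp3 and Ikzf2 of the factor list and Il2ra and Ctla4 of the contact list.

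Relative to Foxp3 in the same library, peritoneal groups were again the lowest for Ebi3. Foxp3 group means were 205.1 to 287.3 CPM and highest in peritoneal controls. Per 100 Foxp3 counts, Ebi3 had 2.63 and 1.27 counts in peritoneal controls and 8.27 and 8.29 in peritoneal dDC, with 11.8 to 17.8 in spleen controls and 27.3 to 32.9 in spleen dDC. In thymus the genotypes overlapped on this scale, at 11.2 to 28.2 in controls and 24.1 to 29.5 in dDC, since the control library with most Ebi3 had the least Foxp3 of its group. Fgl2 had 3.67 and 0.436 counts in peritoneal controls and 17.9 and 28.7 in peritoneal dDC. Entpd1 had 4.59 and 5.29 against 10.5 and 17.7, below the 23.3 to 32.8 of spleen controls. Nt5e had 189.4 and 160.8 against 237.1 and 302.7. For these 4 genes the peritoneal genotypes did not overlap on either scale. In CPM 34.1 percent of all tested genes were separate in this comparison, and no such share was made for the Foxp3 scale. The mean of Foxp3 itself was lower in peritoneal dDC (230.1 CPM) than in peritoneal controls (287.3 CPM), which raises dDC values on that scale. The Foxp3 scale is therefore not independent evidence.

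**Figure D5:**
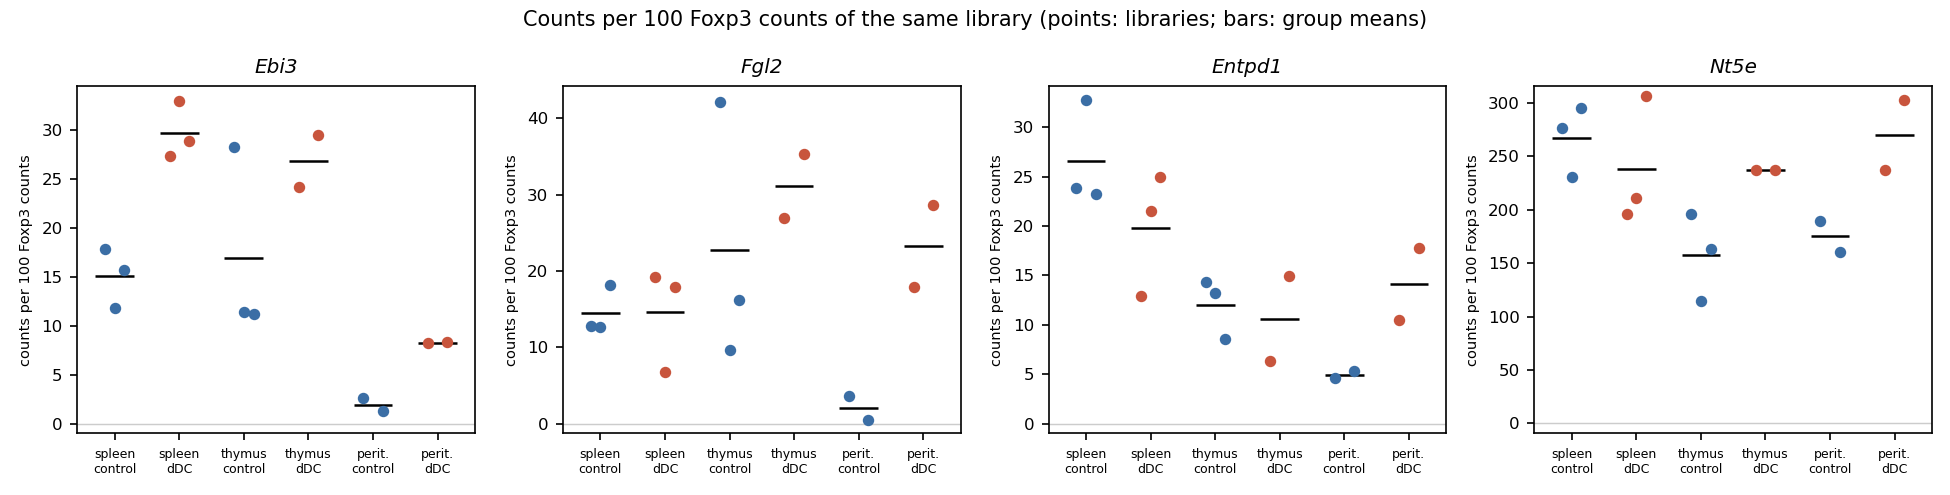
Counts of Ebi3, Fgl2, Entpd1 and Nt5e per 100 Foxp3 counts of the same library, with points for libraries (blue control, red dDC) and bars for group means. Peritoneal controls hold the lowest points for Ebi3 (2.63 and 1.27), Fgl2 (3.67 and 0.436) and Entpd1 (4.59 and 5.29) but not for Nt5e.

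The genes whose levels followed each member most closely were taken by the root mean square difference of centred log2 CPM over the 15 libraries, which share tissue and depth, with no test. For Ebi3 they were Twsg1 (0.55) and Cd83 (0.57), beside a spread of Ebi3 itself of 1.24 (SD). For Fgl2 they were Tnfsf11 (0.61) and Akr1e1 (0.73), beside 1.47. For Entpd1 the nearest was Ranbp9 (0.36), beside 0.67, and for Nt5e Ngdn (0.16) and Snx17 (0.18), beside 0.29. The weak members had looser neighbours: Lsm2 (0.75) and Dcxr (0.81) for Il10, Thrb (1.06) and Cc2d2a (1.32) for Gzmb, Cul7 (1.07) and Ctsl (1.19) for Areg, and F2rl3 (1.3) and Atp6v0d2 (1.32) for Il12a. Among the members the smallest difference was that of Entpd1 and Nt5e (0.72), which is more than the spread of Entpd1 itself (0.67). The next was that of Ebi3 and Fgl2 (0.96). Pearson's r over the 15 libraries was 0.03 for Entpd1 and Nt5e, the members with the smallest spreads, and 0.76 for Ebi3 and Fgl2. No likeness of Entpd1 and Nt5e is read from their small difference. Ebi3 and Il12a, which encode the chains of IL-35, had a difference of 2.73 and an r of -0.26.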

How the data were processed

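RNA of sorted Foxp3-positive T cells was turned into cDNA from a poly-dT primer with template switching, amplified and sheared before library preparation, per the labels' protocols. That chemistry does not mark strand, and no molecular identifiers are named. The tools were bcl2fastq 2.19.1, GSNAP and featureCounts 1.6.0 with build mm10, per the submitters' processing notes. How strand and multiply matching reads were handled is not given in the sources used here. Deposited by the authors were raw counts per gene, whole numbers, with the exon positions and summed exon length of each gene, which gave the RPKM here. Of 45798 features 92 were spike-in sequences with at most 6 counts per library and were left out. Symbols matched for 98.8 percent of genes.

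edgeR 4.0.16 (R 4.3.3) was run on the counts with filterByExpr, TMM scaling and a robust quasi-likelihood fit of 1 mean per group over all 15 libraries with 9 residual degrees of freedom. All tests were two-sided, with Benjamini-Hochberg adjustment over the 18423 genes tested, which held 99.93 percent of counts, and a threshold of 0.05. Alternatives were RLE scaling, no filter, a filter of at least 5 CPM in 2 libraries, DESeq2 1.42.0, limma-voom 3.58.1, fits on the compared groups only and leaving out each library. Levels per 100 Foxp3 counts, the mean of spleen and thymus and fold bounds without 1 library were added after the values had been seen. The 8 genes and the lists (115 other genes, 91 of them tested) were chosen with earlier results of these data known. From a list, genes past the threshold with at least 5 CPM in the higher group were named, at most 3 in each direction. For likeness, the 2 nearest genes with at least 10 CPM in a group were taken. Some results of the receptor list and of likeness are not reported here. Promoter sequences came from RefSeq (GRCm38.p6).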

Additional observations from a re-analysis of the deposited data

How the results depend on the processing

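Over the 13 comparisons no called value of a member changed sign under an alternative. The number of members called moved as follows. DESeq2 called 2 for the mean genotype difference and 2 for peritoneal cavity (0 by edgeR in both), 3 for control peritoneal cavity against spleen (2 by edgeR), 4 and 2 for peritoneal cavity against thymus in controls and dDC (2 and 1 by edgeR), and 1 for thymus against spleen in dDC (0 by edgeR). limma-voom called 0 between control peritoneal cavity and spleen and 1 between control peritoneal cavity and thymus. With only the compared groups in the fit, none was called in the 4 peritoneal comparisons (0 each), where fewer libraries set the spread. For the mean genotype difference 1 member, Ebi3, was called without a filter on low counts (adjusted p = 0.0127) and with the stricter filter (0.0322). RLE scaling changed none of these counts. Without 1 library at a time the counts were 0 to 1 for the mean and for peritoneal cavity between genotypes, 0 to 2 and 1 to 2 for control peritoneal cavity against spleen and thymus, and 0 to 1 in each of those for dDC. They were 0 in the other 7 comparisons. Over all genes the number called depended on the tool: for the mean genotype difference 14 by edgeR, 384 by DESeq2, 21 by limma-voom, 39 without a filter and 23 with the stricter filter. It was 5 to 110 without 1 library at a time. In spleen and thymus edgeR called 0 and DESeq2 33 and 153. In peritoneal cavity it was 1 by edgeR, 194 by DESeq2, 5 by limma-voom and 12 without a filter. For the tissue comparisons edgeR called 33 to 455 genes, DESeq2 425 to 1392, and edgeR on the compared groups only 0 to 73. No paired analysis was made, since the labels do not say which libraries, if any, belong together. In peritoneal cavity the 2 libraries of a group differed alike in both genotypes. The sum of 6 eosinophil and neutrophil markers was 0.147 and 41.3 CPM in controls 1 and 2, and 0.257 and 41.55 CPM in dDC 1 and 2. For the B cell markers it was 1123 and 2164 CPM in controls and 1323 and 2272 CPM in dDC. Whether control and dDC libraries were handled in pairs was not tested. Peritoneal groups have 2 libraries each, and edgeR passed no difference of Il12a, Areg, Gzmb or Il10, whose coefficients of variation were 0.828 to 1.36.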
